A study of Mus musculus with 12 samples.

Results

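The interferon response genes analysed here are 42 genes that type I or type II interferon is known to induce and that were listed by symbol. All 42 were matched to an Ensembl identifier among the 49585 genes counted in the adrenal cortex. Interferons are secreted proteins that bind receptors on the cell surface. Type I interferons signal through JAK1 and TYK2 to transcription factors, STAT2 and IRF9 among them, that bind the interferon-stimulated response element, and interferon gamma signals through JAK1 and JAK2 to genes that hold the gamma-activated site. The genes so induced encode sensors of foreign RNA and DNA, transcription factors, antiviral effectors and the machinery that cuts and displays peptides on class I MHC molecules, and many of them keep a low tonic level in uninfected tissue.

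RNA sequencing measured the adrenal cortex of 12 mice in 3 groups of 4. Male C57BL/6J mice, 6 weeks old at the start, received for 20 weeks either a low-fat diet (LFD, 10% of energy from fat, labelled ND, replicates 2, 5, 6 and 7) or a high-fat diet (HFD, 60% of energy from fat, replicates 1 to 4). The last group stayed on HFD for the 20 weeks and received icosapent ethyl, the ethyl ester of the n-3 fatty acid eicosapentaenoic acid, during the last 10 weeks (labelled Vasc, replicates 1 to 4). The sex, strain and age are those the study's methods give for LFD and HFD feeding. For icosapent ethyl feeding, placed under other experiments, the methods state neither sex nor age. They describe wild-type mice for all these feedings, whereas the sample labels give the genotype Fads2-/- for all 12. Fads2, the delta-6 desaturase, was counted in every mouse, at 452 to 799 CPM in LFD, 739 to 2182 in HFD and 589 to 1696 in icosapent ethyl mice. The study's knockout mice were females on diets low or rich in polyunsaturated fatty acids. It reports Fads2 deficiency at the mRNA level in their adrenal glands. The counts here go against the label. They do not settle the genotype by themselves, because gene-level counts cannot show whether an exon is missing. The genotype label is the same in all groups. CPM are read counts scaled to library size, with TMM factors over the 12 mice. The study describes the libraries as coming from separate mice.

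Library totals ran from 34785979 to 67295963 counts. The 10 adrenocortical markers summed to 44732 to 75197 CPM in LFD, 58956 to 105487 in HFD and 61667 to 97574 in icosapent ethyl mice, so the labelled tissue was present in each library. The 10 markers of chromaffin cells, the catecholamine cells of the medulla, summed to 5053 to 17908, 2472 to 7958 and 4492 to 8714 CPM in the same order, and none of the 10 was at 0. In bulk tissue, fewer cells of a type and less RNA per cell cannot be told apart.

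The promoters show what many of the genes share beyond the list. RefSeq promoter windows (build GRCm38.p6, 250 bases before to 50 after the annotated start) were matched by symbol for 33 of the 42 genes. The motif GAAANNGAAA, the core spacing of the interferon-stimulated response element, stood on either strand in 20 of the 33 (60.6%), against 3.99% of the 27025 symbols with a window. All 6 interferon-inducible GTPases with a window held it, as did 2 of 2 sensors, 1 of 1 ISG15 system gene and 3 of 4 IFIT genes. It stood in 2 of 4 OAS genes, 4 of 8 other antiviral effectors, 1 of 4 transcription factors and 1 of 4 antigen processing genes. Among genes described further on, Irf1, Irf7, Ifit2, Oasl1, Oasl2, Psmb8, Psmb9 and Tap1 did not hold the motif. Windows of 30 bases around it are shown for genes described further on, in the direction of the gene, with the matches in capitals (TTTCNNTTTC is the same motif on the other strand).
Ddx58 (chr4:40239804-40239833, minus strand): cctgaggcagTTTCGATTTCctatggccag
Isg15 (chr4:156200871-156200900, minus strand): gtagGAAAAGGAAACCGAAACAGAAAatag
Ifit1 (chr19:34640775-34640804, plus strand): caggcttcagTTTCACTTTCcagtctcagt
Ifit3 (chr19:34583363-34583392, plus strand): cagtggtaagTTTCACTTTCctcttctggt
Oas1a (chr5:120907523-120907552, minus strand): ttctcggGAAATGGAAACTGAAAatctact
Eif2ak2 (chr17:78882535-78882564, minus strand): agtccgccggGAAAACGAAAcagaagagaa
Gbp2 (chr3:142620594-142620623, plus strand): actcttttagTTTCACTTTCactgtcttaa
Igtp (chr11:58199512-58199541, plus strand): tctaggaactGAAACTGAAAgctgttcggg
B2m (chr2:122147538-122147567, plus strand): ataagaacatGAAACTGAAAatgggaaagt

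The motif TTCNNNGAA, the palindromic core of the gamma-activated site, reads the same on both strands. It stood in 10 of the 33 windows (30.3%), against 9.55% of all symbols, and 6 of the 33 held both motifs. The 3 windows shown, again with the match in capitals, belong to 3 of the 4 genes that held it without the other motif.
Irf1 (chr11:53769913-53769942, plus strand): aacagcctgatTTCCCCGAAatgatgaggc
Ifit2 (chr19:34550444-34550473, plus strand): catgggagcTTCCTGGAAgaatggataaaa
Psmb8 (chr17:34198087-34198116, plus strand): gtcctccgctgTTCCCAGAAgatgcccccc

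These matches are descriptions of the letters in a window and not measured binding sites. The 250 bases before the RefSeq start are given whole for Psmb8 and Psmb9, immunoproteasome genes described further on, with TTCNNNGAA in capitals. In GENCODE M21 both stretches lie inside the genes, at chr17:34197721-34201454 for Psmb8 and chr17:34181987-34187764 for Psmb9. They therefore do not show the bases before the GENCODE starts. The Psmb9 window holds neither motif, and it shares 275 bases with the window of Tap1, which is read from the opposite strand.
Psmb8 (chr17:34197945-34198194, plus strand): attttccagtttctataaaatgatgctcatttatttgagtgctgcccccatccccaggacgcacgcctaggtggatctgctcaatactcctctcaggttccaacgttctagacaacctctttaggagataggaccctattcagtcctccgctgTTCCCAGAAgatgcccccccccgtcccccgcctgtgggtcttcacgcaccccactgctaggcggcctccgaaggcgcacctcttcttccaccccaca
Psmb9 (chr17:34187331-34187580, minus strand): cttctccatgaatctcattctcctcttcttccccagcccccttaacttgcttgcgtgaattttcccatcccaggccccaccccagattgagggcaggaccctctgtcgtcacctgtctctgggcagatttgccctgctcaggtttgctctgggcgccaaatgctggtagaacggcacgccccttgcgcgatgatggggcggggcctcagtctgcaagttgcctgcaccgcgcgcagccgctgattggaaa

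The genes differed widely in level. On the scale of mean CPM per kb of exon, which allows genes to be compared, B2m (957), the light chain of class I MHC, and Ifi27 (431), an interferon-induced mitochondrial protein, stood far above the other 40 genes. Bst2 (75.5), the tetherin that holds budding virions at the membrane, came next, and Mx1 (0.056), a dynamin-like antiviral GTPase, was the lowest. The median was 6.59 CPM per kb for the 42 genes and 3.61 for all genes tested. In all, 40 of the 42 exceeded 1 CPM in every mouse, and the exceptions were Mx1 and Oas2. Transcripts of this response were therefore detected in the adrenal cortex of every diet group.

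**Figure D1:**
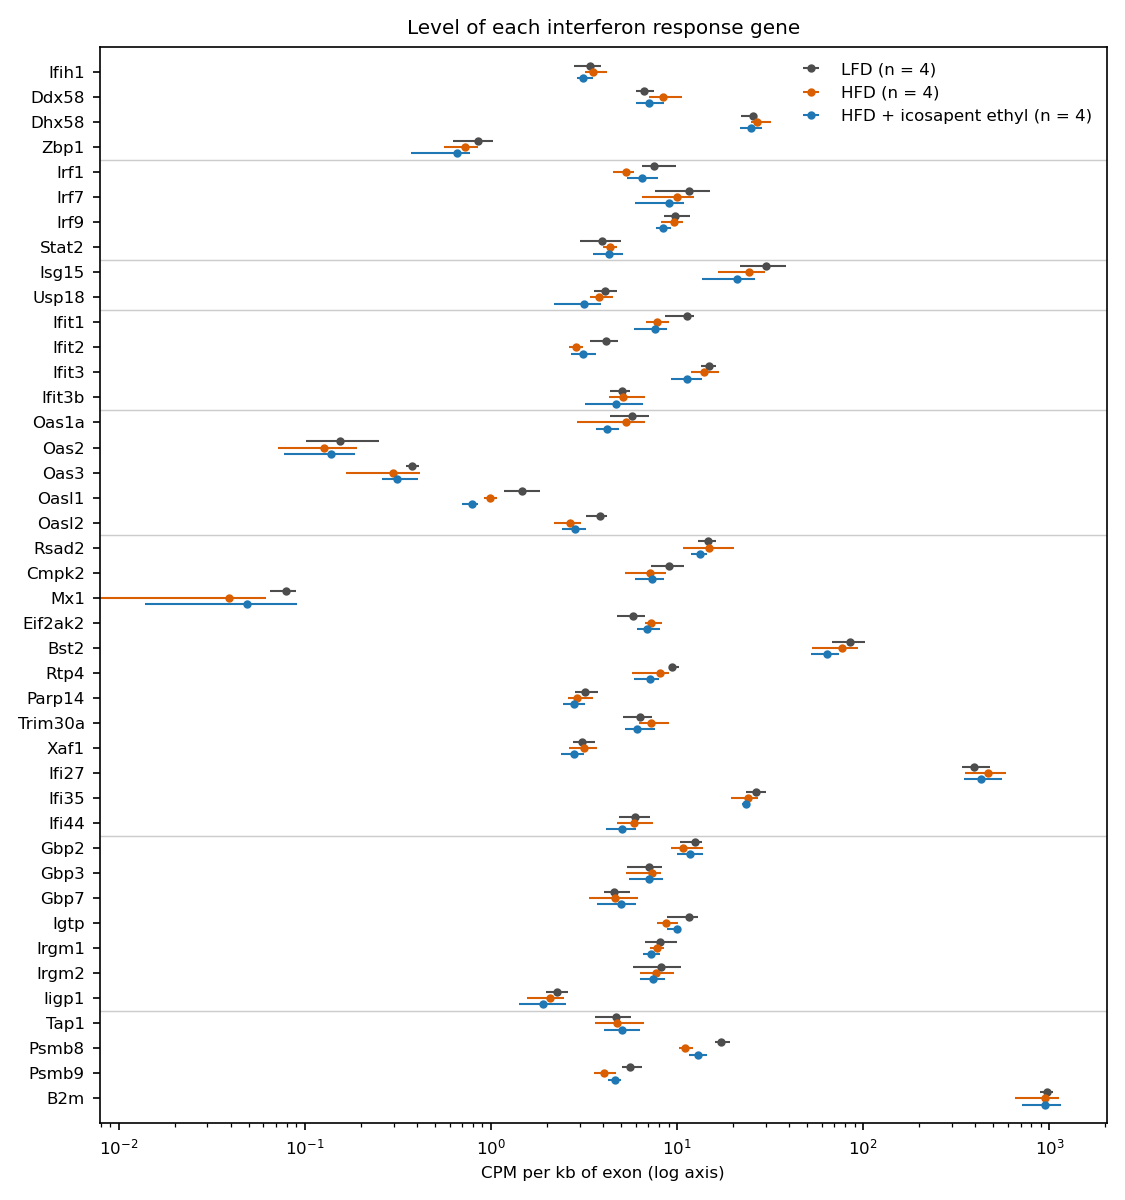
Level of each of the 42 genes in CPM per kb of exon (log axis), with 1 point for the mean of each group of 4 mice and a line from the lowest to the highest mouse, grouped by role. B2m and Ifi27 lie at the right and Mx1, whose HFD line runs off the axis because 1 mouse had no count, at the left.

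The ligands gave almost no reads. Of 11 interferon ligand genes, 6 (Ifnb1, Ifna1, Ifna2, Ifna4, Ifna5 and Ifne) had no count in any of the 12 mice, where 3 counts would be 0.048 to 0.080 CPM. Ifng, the type II interferon, had 0 to 4 counts per mouse. The 11 ligands together reached 0.119 to 0.312 CPM in LFD, 0.039 to 0.362 in HFD and 0.081 to 0.263 in icosapent ethyl mice, and none had enough counts to be tested.

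The receptors were present. Ifnar1, a chain of the type I receptor, was at 41.7, 49.2, 41.8 and 49.8 CPM in LFD (replicates in ascending order, here and throughout), 53.0, 59.8, 48.9 and 61.2 in HFD and 55.7, 46.8, 54.0 and 58.4 in icosapent ethyl mice. Ifngr1, the ligand-binding chain of the interferon gamma receptor, was at 55.0, 52.1, 48.9 and 54.3 in LFD, 45.3, 44.8, 46.6 and 46.4 in HFD and 46.2, 47.3, 51.5 and 49.6 in icosapent ethyl mice. Every HFD mouse was below every LFD mouse for Ifngr1, while one HFD mouse reached into the LFD range for Ifnar1. Neither passed edgeR's quasi-likelihood test after Benjamini-Hochberg adjustment over all genes tested, with HFD over LFD log2 fold changes of -0.21 (SE 0.073, adjusted p = 0.134) for Ifngr1 and 0.28 (SE 0.10, adjusted p = 0.140) for Ifnar1. None of the 5 receptor genes tested passed by edgeR in any comparison. In HFD against LFD 2 of the 5 were higher and 1 lower at an unadjusted p below 0.05. Of all genes tested, 12.4% were higher and 12.5% lower at that level. DESeq2 passed 1 of the 5, Ifngr1, as lower (DESeq2 adjusted p = 0.0476), where it passed 6.69% of all genes as lower.

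The first comparison asks how 20 weeks of HFD changed the cortex relative to LFD. Of the 42 genes, 1 passed the edgeR test at an adjusted p below 0.05: Psmb8, an inducible catalytic subunit of the immunoproteasome, was lower in HFD. In this comparison 1.45% of the 15909 genes tested passed, 0.974% as higher and 0.471% as lower. The fitted change was negative for 31 of the 42 genes (73.8%), against 51.8% of all genes, and its median was -0.12 on the log2 scale, against -0.015. With 1 mouse left out that median ran from -0.20 (without HFD replicate 2) to -0.072 (without HFD replicate 1), and it was -0.079 without LFD replicate 5. At an unadjusted p below 0.05, 8 of the genes were lower (19.0%) and 2 higher (4.76%), where 12.5% and 12.4% of all genes were. In 8 of the genes (19.0%) all HFD mice were below all LFD mice, against 5.82% of all genes, and in 0 were they all above, against 7.71%. The 8 include Mx1, the lowest in level of the 42, and Rtp4, whose ranges almost touch. DESeq2's Wald test on the genes that edgeR tested passed 7 of the 42 (16.7%), all lower in HFD (Psmb8, Oasl2, Ifit2, Psmb9, Ifit1, Oasl1 and Irf1). By that test 6.69% of genes were lower and 6.71% higher. All fits share the same 4 LFD and 4 HFD mice and are not independent of each other.

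**Figure D2:**
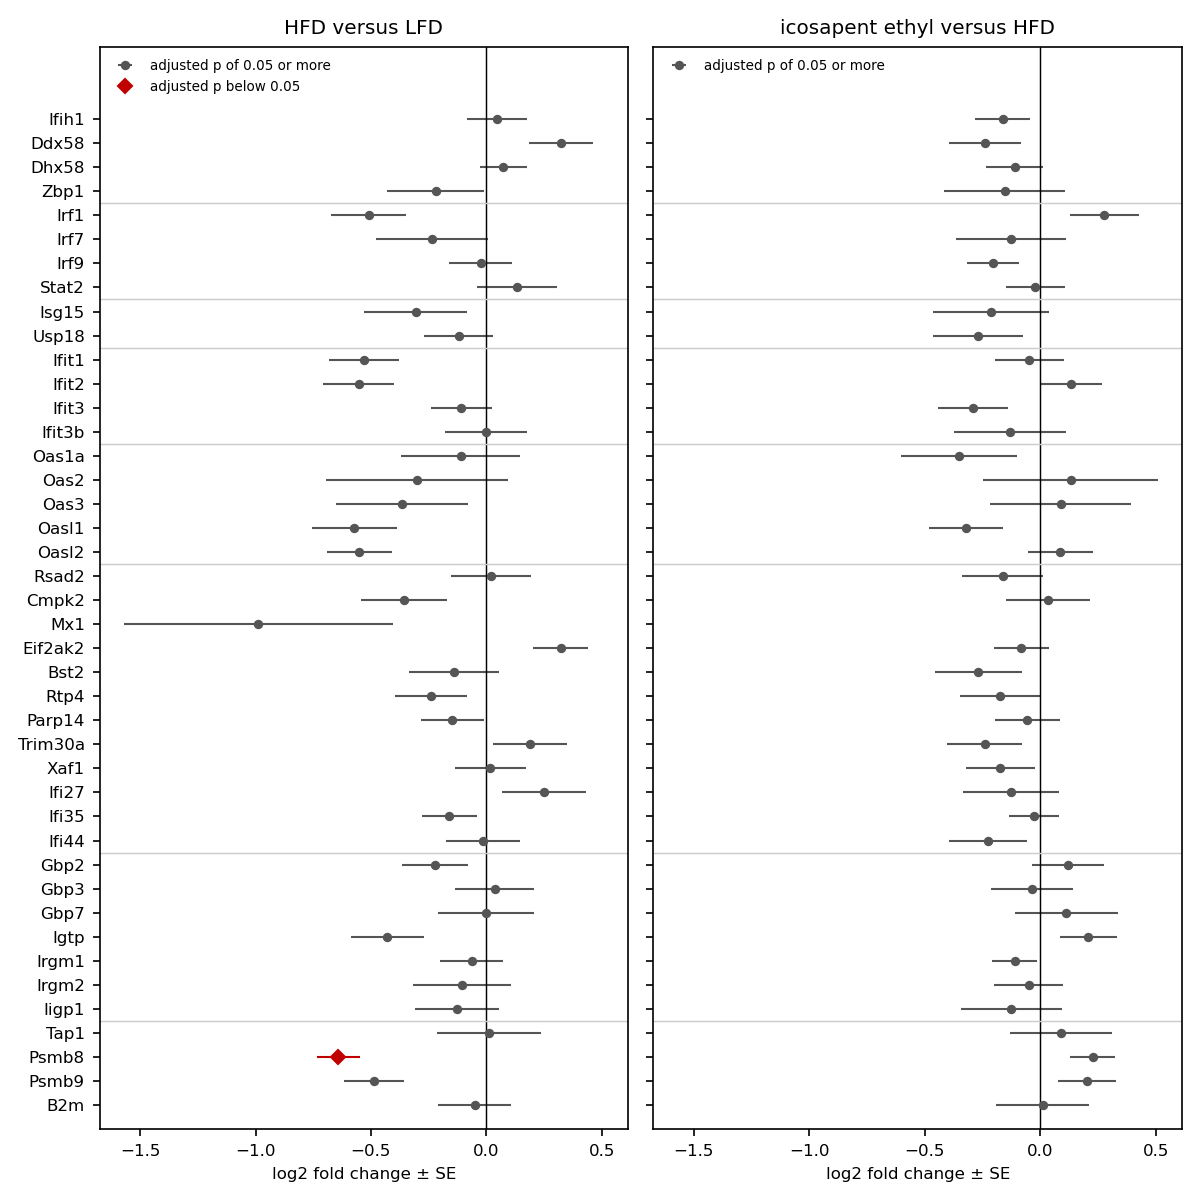
Log2 fold change with its SE (edgeR) for each gene, HFD over LFD on the left and icosapent ethyl over HFD on the right, grouped by role. Psmb8 on the left is the one gene with an adjusted p below 0.05, and Mx1 had too few counts to be tested on the right.

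Antigen processing held the gene that passed. Psmb8 (ENSMUSG00000024338, chr17:34197721-34201454, plus strand, in GENCODE M21 on GRCm38) was at 56.9, 54.0, 65.2 and 56.6 CPM in LFD, 37.6, 41.3, 34.6 and 36.5 in HFD and 39.3, 42.001, 44.9 and 49.2 in icosapent ethyl mice. Every HFD mouse and every icosapent ethyl mouse was below every LFD mouse. It was lower in HFD by a log2 fold change of -0.64 (SE 0.092, edgeR adjusted p = 0.0376, DESeq2 adjusted p = 1.26e-06). The call held without LFD replicate 2 and without HFD replicate 1 and was lost without any of the other 6 mice, with edgeR adjusted p from 0.0616 to 0.127 and a log2 fold change that stayed between -0.69 and -0.57 over all 8 omissions. It was also lost, at an adjusted p of 0.0515, when library totals replaced the TMM scaling.

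The other inducible subunits of the immunoproteasome lay in the same order. Psmb9 was at 18.4, 21.1, 23.6 and 19.0 CPM in LFD, 14.2, 17.2, 13.1 and 14.5 in HFD and 18.3, 15.6, 18.1 and 15.9 in icosapent ethyl mice. The LFD and HFD mice did not overlap, but the edgeR test did not pass (log2 fold change -0.49, SE 0.131, adjusted p = 0.0821). Psmb10, the third inducible subunit and one of 11 further class I presentation genes outside the 42, was at 53.6, 52.6, 55.8 and 57.0 in LFD, 36.3, 39.5, 42.2 and 39.6 in HFD and 42.2, 43.5, 41.7 and 45.2 in icosapent ethyl mice. It was lower in every HFD mouse than in any LFD mouse (log2 fold change -0.48, SE 0.076, edgeR adjusted p = 0.0376), and the call was lost without each of the 8 mice but HFD replicate 1 (adjusted p from 0.0528 to 0.131). Of those 11 genes, 9 were fitted lower, and edgeR passed 1 as lower, against 0.471% of all genes. DESeq2 passed 2 as lower (18.2%, against 6.69%), Psmb10 and Tapbp, the tapasin of the peptide-loading complex. At an unadjusted p below 0.05, 7 of the 11 were lower (63.6%, against 12.5% of all genes), and in 4 all HFD mice were below all LFD mice (36.4%, against 5.82%). The constitutive subunits that the inducible ones replace were examined after the values were seen. Psmb5, Psmb6 and Psmb7 gave HFD over LFD log2 fold changes of 0.18 (SE 0.116), -0.10 (SE 0.105) and 0.10 (SE 0.125), none past the threshold. The Psmb8 to Psmb5 ratio of CPM was 0.427 to 0.533 in LFD, 0.213 to 0.325 in HFD and 0.295 to 0.341 in icosapent ethyl mice, and the Psmb10 to Psmb7 ratio was 0.236 to 0.282, 0.154 to 0.195 and 0.180 to 0.1998. The Psmb9 to Psmb6 ratio overlapped between LFD (0.0875 to 0.119) and HFD (0.0656 to 0.102).

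For Tap1 and B2m the mice of all groups overlapped. Tap1, a chain of the peptide transporter that starts beside Psmb9, was at 28.6, 31.0, 23.4 and 19.9 CPM in LFD, 28.0, 36.3, 19.8 and 20.5 in HFD and 34.6, 29.4, 25.1 and 22.1 in icosapent ethyl mice, with an HFD over LFD log2 fold change of 0.01 (SE 0.225). B2m (ENSMUSG00000060802, chr2:122147686-122153083, plus strand) was at 762, 830, 897 and 859 CPM in LFD, 558, 815, 911 and 970 in HFD and 740, 614, 926 and 995 in icosapent ethyl mice, and its log2 fold change was -0.05 (SE 0.157).

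**Figure D3:**
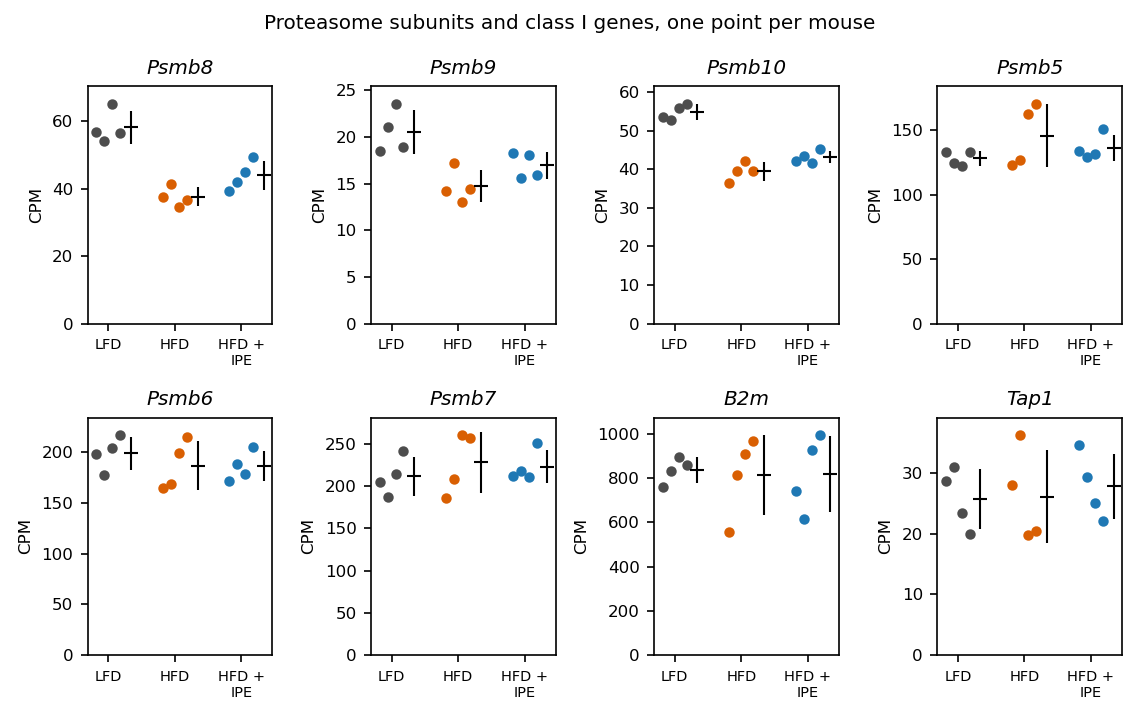
CPM of the inducible proteasome subunits (Psmb8, Psmb9, Psmb10), the constitutive ones (Psmb5, Psmb6, Psmb7), B2m and Tap1, with 1 point per mouse and the mean ± SD of 4 mice beside each group (IPE is icosapent ethyl). The LFD points of Psmb8 and Psmb10 lie above all points of the other groups.

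Most markers of macrophages, cells that also express the immunoproteasome, were lower in HFD than in LFD too. The 10 macrophage markers summed to 732 to 1096 CPM in LFD, 511 to 617 in HFD and 561 to 703 in icosapent ethyl mice. In HFD against LFD, 8 of the 10 were fitted lower and 2 higher. The edgeR test passed 5 of the 10 as lower (Cd68, Lyz2, C1qa, C1qc and Aif1), against 0.471% of all genes. None of the 10 was at 0. Within groups the macrophage sum and Psmb8 did not rank alike, which in groups of 4 mice cannot show what part macrophages had in Psmb8. HFD replicate 3 had the highest HFD sum and the lowest HFD Psmb8. LFD replicate 7 had the highest LFD sum, and LFD replicate 6 the highest LFD Psmb8. The chromaffin marker sum was lower in HFD as well, with overlapping mice and 0 of 10 markers past the edgeR threshold. At an unadjusted p below 0.05, 7 of the 10 were lower (12.5% of all genes were), and DESeq2 passed 4 as lower (6.69%). The 10 adrenocortical markers went the other way, all fitted higher in HFD with a median log2 fold change of 0.50. Of these, 6 were higher at an unadjusted p below 0.05 (12.4% of all genes were), DESeq2 passed 2 (6.71%) and edgeR 0. The 10 markers of T and NK cells, which can make interferon gamma, summed to 8.25 to 10.5 CPM in LFD, 5.45 to 7.74 in HFD and 6.45 to 9.03 in icosapent ethyl mice, with 0 of 10 past the edgeR threshold (3 lower at an unadjusted p below 0.05, and 2 lower by DESeq2). The part of any of these cells in the values of Psmb8, of the other class I genes and of the OAS and IFIT genes given next was not tested.

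The OAS proteins, which make or resemble enzymes that make the 2',5'-linked adenylates activating RNase L, had 5 of 5 genes fitted lower in HFD. Of these, 0 passed the edgeR threshold. At an unadjusted p below 0.05, 2 of the 5 were lower (40.0%, against 12.5% of all genes), and DESeq2 passed 2 as lower (40.0%, against 6.69%). Oasl1 (ENSMUSG00000041827, chr5:114923240-114937915, plus strand), an OAS-like protein that restrains Irf7 translation, was at 3.06, 4.76, 3.81 and 3.61 CPM in LFD, 2.41, 2.61, 2.82 and 2.46 in HFD and 2.23, 1.82, 2.16 and 2.04 in icosapent ethyl mice. The 3 groups formed 3 separate ranges, with LFD the highest and icosapent ethyl the lowest. The HFD over LFD log2 fold change was -0.57 (SE 0.185, edgeR adjusted p = 0.115, DESeq2 adjusted p = 0.0268). Oasl2, its neighbour on chromosome 5, was at 26.8, 25.9, 25.3 and 20.6 in LFD, 17.4, 19.5, 16.8 and 14.0 in HFD and 20.6, 17.5, 18.4 and 15.3 in icosapent ethyl mice (HFD over LFD -0.55, SE 0.143, edgeR adjusted p = 0.0773). Oas1a, the OAS gene with the highest level per kb, was at 8.18, 11.1, 10.9 and 13.3 in LFD and 5.47, 11.2, 12.7 and 11.01 in HFD, and its log2 fold change of -0.11 (SE 0.257) became 0.092 without HFD replicate 1.

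Among the IFIT proteins, which bind foreign RNA ends and block its translation, the 4 genes gave 0 calls by edgeR (2 at an unadjusted p below 0.05, 2 by DESeq2). Ifit2 (ENSMUSG00000045932, chr19:34550694-34576419, plus strand) was at 18.9, 18.6, 13.4 and 14.4 CPM in LFD, 10.9, 12.2, 11.5 and 10.3 in HFD and 14.3, 11.8, 12.6 and 10.6 in icosapent ethyl mice. All HFD mice were below all LFD mice, with a log2 fold change of -0.55 (SE 0.154, edgeR adjusted p = 0.0873, DESeq2 adjusted p = 0.00859). Ifit1 was at 32.6, 31.7, 32.4 and 22.8 in LFD and 20.5, 23.9, 20.8 and 18.02 in HFD, where LFD replicate 7 lay inside the HFD range (log2 fold change -0.53, SE 0.151, edgeR adjusted p = 0.0909). Ifit3, highest of the family per kb, was at 28.3, 25.4, 26.7 and 23.6 in LFD, 20.8, 29.4, 24.5 and 22.3 in HFD and 23.6, 19.6, 20.0 and 16.1 in icosapent ethyl mice, and its log2 fold change of -0.11 (SE 0.132) ran from -0.21 to -0.043 when 1 mouse was left out. Ifit3 and Ifit3b are close copies, so reads that match both may have been counted to neither.

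The sensor RIG-I and the kinase PKR were fitted higher in HFD without passing. Ddx58 (ENSMUSG00000040296, chr4:40203773-40239828, minus strand), which encodes the RNA sensor RIG-I, was at 45.1, 53.1, 42.4 and 46.4 CPM in LFD, 58.7, 75.0, 49.7 and 52.0 in HFD and 60.01, 46.7, 50.3 and 42.4 in icosapent ethyl mice. HFD replicate 2 was the highest of the 12 mice, 2 HFD mice lay in the LFD range, and the log2 fold change was 0.32 (SE 0.139, edgeR adjusted p = 0.192), or 0.19 without HFD replicate 2. Eif2ak2 (chr17:78852564-78882573, minus strand), the RNA-activated kinase PKR, was at 24.4, 34.5, 28.8 and 30.9 in LFD, 34.5, 42.6, 34.9 and 36.9 in HFD and 35.4, 31.2, 41.6 and 32.4 in icosapent ethyl mice (log2 fold change 0.32, SE 0.120, edgeR adjusted p = 0.151). Dhx58, the RIG-I-like regulator LGP2 and the sensor highest per kb, was at 72.3, 85.8, 87.7 and 87.0 in LFD, 81.3, 82.2, 83.5 and 105.2 in HFD and 74.0, 71.1, 93.8 and 87.0 in icosapent ethyl mice, with a log2 fold change of 0.07 (SE 0.102). Of the 4 sensors 3 were fitted higher and 0 passed the edgeR test (1 at an unadjusted p below 0.05, 0 by DESeq2).

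Of the transcription factors, 3 of 4 were fitted lower and 0 passed by edgeR (1 at an unadjusted p below 0.05, 1 by DESeq2). Irf1, a factor that both interferon types induce, was at 39.2, 28.0, 25.7 and 27.2 CPM in LFD, 23.4, 22.9, 20.6 and 18.05 in HFD and 22.7, 31.2, 27.6 and 21.5 in icosapent ethyl mice. All HFD mice were below all LFD mice (log2 fold change -0.51, SE 0.164, edgeR adjusted p = 0.113, DESeq2 adjusted p = 0.0347), and the fold change was -0.34 without LFD replicate 2, the highest mouse. Irf7, the factor that amplifies type I interferon production and the highest of the 4 per kb, was at 28.7, 37.8, 52.3 and 57.0 in LFD, 24.6, 36.3, 42.5 and 46.6 in HFD and 33.6, 22.4, 40.2 and 41.0 in icosapent ethyl mice. Its range within each group was wider than the differences between groups (HFD over LFD -0.23, SE 0.243).

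Isg15 (chr4:156199424-156200818, minus strand), the ubiquitin-like modifier, was at 16.5, 20.1, 24.9 and 29.0 CPM in LFD, 12.6, 16.2, 22.2 and 22.5 in HFD and 14.4, 10.3, 19.9 and 18.7 in icosapent ethyl mice, an overlap in all groups (HFD over LFD -0.31, SE 0.224, edgeR adjusted p = 0.427). Usp18, the protease that removes ISG15, gave -0.12 (SE 0.15).

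The interferon-inducible GTPases, guanylate-binding and immunity-related proteins of the defence against intracellular parasites, were fitted lower in 6 of 7 genes. Of these genes, 0 passed the edgeR threshold. At an unadjusted p below 0.05, 1 of the 7 was lower (14.3%, against 12.5% of all genes), and DESeq2 passed 0. Igtp was at 26.2, 24.5, 25.3 and 17.8 CPM in LFD, 18.1, 20.5, 15.7 and 16.0 in HFD and 17.9, 20.7, 21.3 and 21.2 in icosapent ethyl mice (log2 fold change -0.43, SE 0.158, edgeR adjusted p = 0.148). Igtp and Irgm2 overlap on the same strand of chromosome 11, so reads in the shared part may have been counted to neither and their values are uncertain. Gbp2, the GTPase highest per kb, was at 26.2, 34.1, 33.0 and 32.7 in LFD, 25.8, 34.6, 23.3 and 24.6 in HFD and 31.1, 25.1, 26.8 and 34.5 in icosapent ethyl mice (log2 fold change -0.22, SE 0.144).

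The 12 remaining antiviral effectors were divided, with 5 fitted higher, 7 lower and 0 past the edgeR threshold. At an unadjusted p below 0.05, 1 of the 12 was higher (8.33%, against 12.4% of all genes), and DESeq2 passed 0. Ifi27 was at 499, 499, 606 and 700 CPM in LFD, 514, 574, 808 and 860 in HFD and 526, 512, 666 and 816 in icosapent ethyl mice, and these overlapping ranges gave a log2 fold change of 0.25 (SE 0.182, edgeR adjusted p = 0.423), or 0.13 without HFD replicate 4. Mx1, at 0 to 0.343 CPM over the 12 mice, had the lowest fitted value of the 42 (-0.99, SE 0.583), at 0 to 18 counts per mouse. Rtp4 was lower in every HFD mouse (12.2 to 19.3 CPM) than in any LFD mouse (19.4 to 21.8), with edges that almost touch (log2 fold change -0.24, SE 0.156, edgeR adjusted p = 0.372).

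Genes of the pathway outside the 42 gave few calls. By edgeR 0 of 31 further interferon-induced genes, 0 of 13 sensors and adaptors upstream of interferon and 0 of 6 brakes on the response passed in any of the 3 comparisons. In HFD against LFD, 23 of the 31 were fitted lower (74.2%), 2 were lower at an unadjusted p below 0.05 (6.45%, against 12.5% of all genes) and DESeq2 passed 1 as lower (3.23%, against 6.69%). Of the 13, 1 was higher and 1 lower at an unadjusted p below 0.05 (7.69% each, against 12.4% and 12.5% of all genes). DESeq2 passed 1 of the 13 as higher, against 6.71% of all genes. Of the 6, 1 was lower at an unadjusted p below 0.05 and by DESeq2, Ptpn6, a tyrosine phosphatase of blood cells. That is 16.7%, against 12.5% and 6.69% of all genes. In the other comparisons DESeq2 passed 0 genes of these lists. At an unadjusted p below 0.05, 1 of the 31 was higher with icosapent ethyl than in HFD (3.23%). Of all genes, 1.39% reached that level in either direction in this comparison. With icosapent ethyl, 5 of the 31 were lower than in LFD at the same level (16.1%, against 6.67% of all genes).

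**Figure D4:**
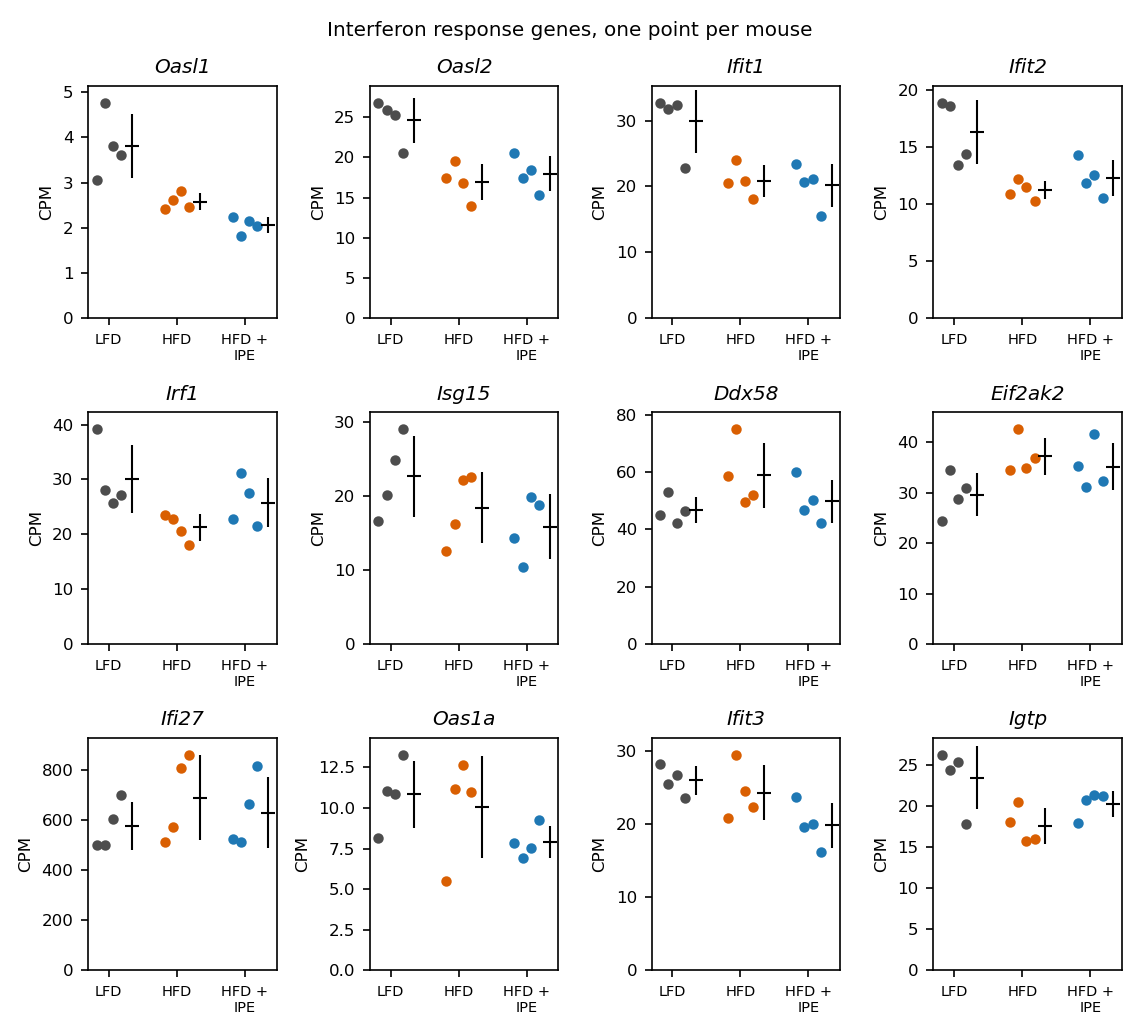
CPM of 12 genes with 1 point per mouse and the mean ± SD of 4 mice beside each group (IPE is icosapent ethyl). Oasl1 falls into 3 separate ranges, whereas Isg15, Ifi27 and Oas1a overlap between groups.

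The second comparison asks what 10 weeks of icosapent ethyl changed in mice that stayed on HFD. None of the 41 genes tested passed the edgeR test (0.0% of the 15913 genes tested passed in either direction), 1 of the 41 reached an unadjusted p below 0.05 (1.39% of all genes did), and DESeq2 passed 0 of them and 6 genes in all (0.0377%). The median log2 fold change was -0.11, against 0.0040 for all genes, and 28 of the 41 were fitted lower (68.3%, against 48.9%). That median ran from -0.15 to -0.029 when 1 mouse was left out, with -0.029 without HFD replicate 2 and -0.041 without icosapent ethyl replicate 2. This comparison and the first share the 4 HFD mice, so a value that is low in HFD by chance lowers the first fold change and raises the second.

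The gene at an unadjusted p below 0.05 was Psmb8, at 39.3 to 49.2 CPM with icosapent ethyl and 34.6 to 41.3 without it, which gave a log2 fold change of 0.23 (SE 0.098, unadjusted p = 0.0469 and adjusted p = 0.9997 in edgeR). Psmb9 and Psmb10 gave 0.20 (SE 0.125) and 0.13 (SE 0.079). All 4 antigen processing genes were fitted higher, and Psmb8 stayed below every LFD mouse in each icosapent ethyl mouse. Irf1 (0.28, SE 0.148, or 0.17 without icosapent ethyl replicate 2) and Igtp (0.21, SE 0.123) had the other large positive values, with overlapping mice.

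Oas1a (-0.35, SE 0.250), Oasl1 (-0.32, SE 0.160) and Ifit3 (-0.29, SE 0.153) had the most negative values over the 8 mice. With 1 mouse left out Oas1a ran from -0.56 (without HFD replicate 1) to -0.22 (without HFD replicate 3) and Ifit3 from -0.39 to -0.19 (without HFD replicate 2), so their order is not settled. Oasl1 was the 1 gene of the 41 whose groups did not overlap in the lower direction, against 0.66% of all genes, and in 0 of the 41 did all icosapent ethyl mice lie above, against 0.484%. Oas1a was at 7.86, 6.90, 7.53 and 9.24 CPM with icosapent ethyl, inside the HFD range of 5.47 to 12.7. The 4 sensors were all fitted lower, as were 10 of the 11 other antiviral effectors tested, with Isg15 at -0.21 (SE 0.252) and Bst2 at -0.27 (SE 0.187).

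The third comparison sets the icosapent ethyl mice against the LFD mice, from which they differ in diet and in the supplement at once. The study's methods place icosapent ethyl feeding under other experiments than LFD feeding, so the experiment may differ as well. By edgeR 0 of the 42 genes passed (0.0% of 15935 genes did), and DESeq2 passed 3, Oasl1, Psmb8 and Oasl2, all lower (by that test 1.49% of genes were lower and 1.69% higher). At an unadjusted p below 0.05, 9 of the 42 were lower and 0 higher, against 6.67% and 7.29% of all genes. The genes were fitted lower in 35 of 42 (83.3%, against 50.6%), with a median log2 fold change of -0.21 against -0.0037. In 4 genes the groups did not overlap, all lower (3.69% of all genes were lower in this way and 4.04% higher): Oasl1, Rtp4, Psmb8 and Psmb9. Oasl1 gave -0.88 (SE 0.192, edgeR adjusted p = 0.184), the largest of these, and Psmb8 -0.41 (SE 0.10, edgeR adjusted p = 0.202). Isg15 (-0.51, SE 0.238) and Ifit1 (-0.57, SE 0.163) did not pass either. The order of the 3 group means was LFD, HFD, icosapent ethyl from high to low in 17 of the 42 genes and LFD, icosapent ethyl, HFD in 12, HFD was highest in 11 and icosapent ethyl in 2.

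Single mice set much of the spread. HFD replicate 1 was the lowest of its group for 23 of the 42 genes (54.8%, against 28.2% of all genes tested), and icosapent ethyl replicate 2 was the lowest of its group for 22 (52.4%, against 26.8%). HFD replicate 2 was the highest HFD mouse for 24 (57.1%, against 23.9%). LFD replicate 2 was the lowest LFD mouse for 16 (38.1%, against 33.8%) and the highest for 17 (40.5%, against 31.4%). Irf1, Ifit1, Ifit2 and Oasl2 were among the genes highest in it, while others went the opposite way. Isg15, Irf7, Bst2 and B2m were lowest in HFD replicate 1 among HFD mice and in icosapent ethyl replicate 2 among icosapent ethyl mice, and among LFD mice they were lowest in LFD replicate 2. These mice also had the lowest adrenocortical marker sum of their group (58956, 61667 and 44732 CPM) and the highest TMM factor (1.07, 1.09 and 1.14), and the part of either in these values was not tested. Mx1, with no count in 1 mouse, was left out of the spread. Among the other 41 genes the pooled SD within groups was largest for Oas2 (0.587 on the log2 scale), Irf7 (0.422) and Isg15 (0.396) and smallest for Psmb8 (0.121), where 12.7% of the genes tested were lower. Among genes above 1 CPM in every mouse its median was 0.239 for 40 of the 42 and 0.221 for 12487 genes. The gene that passed the diet comparison was thus also the one of these 41 that varied least between mice of a group.

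**Figure D5:**
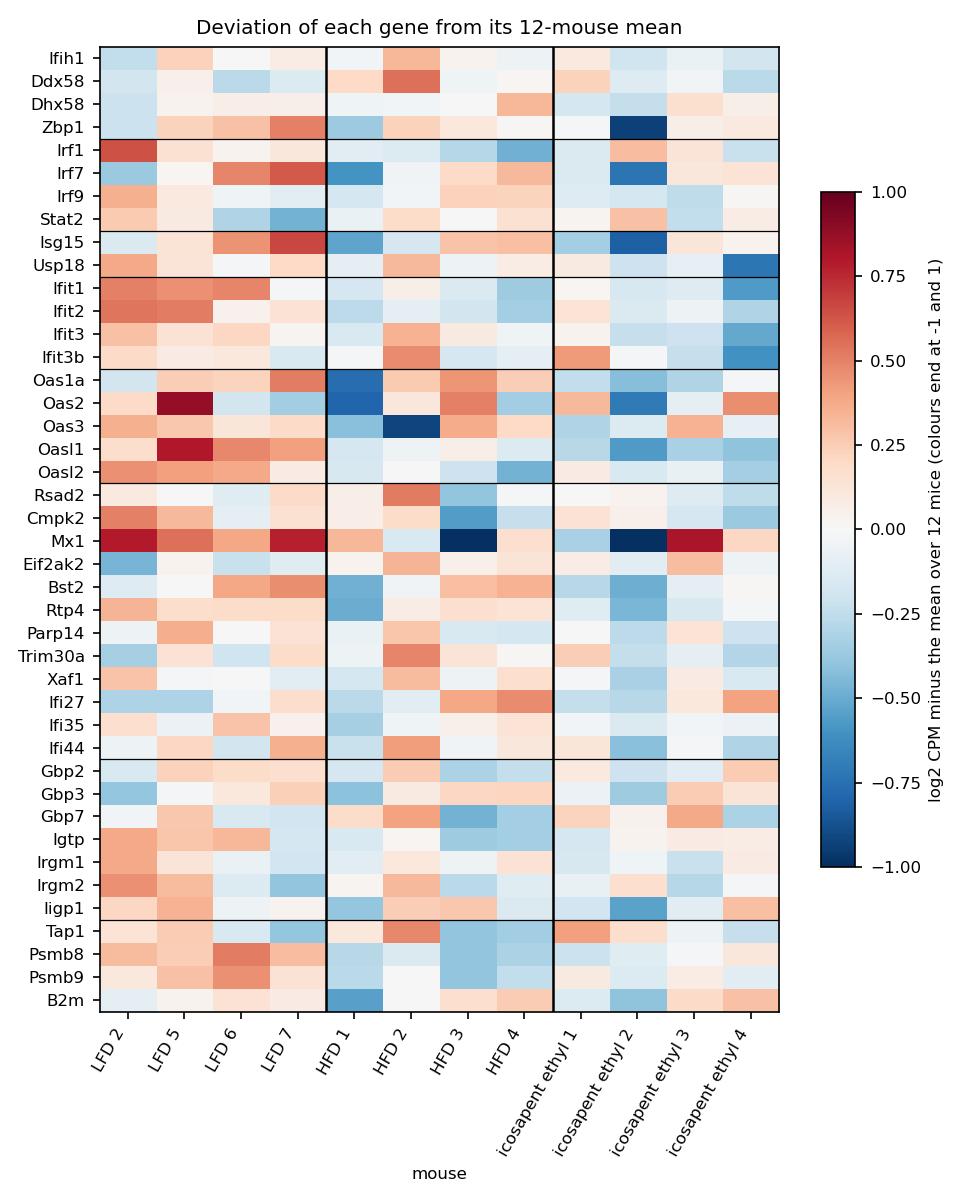
Deviation of each gene (rows, grouped by role) from its mean log2 CPM over the 12 mice (columns), in log2 units, with the colours ending at -1 and 1. HFD replicate 1 and icosapent ethyl replicate 2 are blue for Irf7, Isg15, Bst2 and B2m, and Psmb8 is red in the 4 LFD mice and blue in the 4 HFD mice.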

How the data were processed

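The study's methods describe stranded total RNA libraries, trimming with cutadapt, alignment with STAR to GRCm38 and counting with HTSeq 0.6.1p1, and the authors deposited 1 table of raw counts per gene for each of the 12 mice. Counts were tested for each pair of groups with edgeR 4.0.16 in R 4.3.3 (TMM scaling, filterByExpr at a minimum count of 10, the robust quasi-likelihood test, p-values adjusted by Benjamini-Hochberg over all genes tested, threshold 0.05), on the 8 mice of that pair, and with DESeq2 1.42.0 as an alternative. Scripts were tested on simulated data. SEs are the log2 fold change over the root of F. Symbols, coordinates and exon lengths come from GENCODE M21, in which 49326 of the 49585 identifiers were found. The 66 pairs of libraries all differed by more than counting noise.

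The genes and lists were chosen with earlier results of these data known. Values in every mouse are given for genes past the threshold, the 3 largest rises and falls of the first 2 comparisons among genes of at least 1 CPM, and the leader per kb of each role. Irf1, Igtp and B2m are among these, while Ifit1, Oasl2, Psmb9, Tap1, Rtp4 and the constitutive subunits were added after values were seen. HFD and icosapent ethyl mice share replicate numbers, and the deviations of same-numbered mice correlated at 0.240, 0.116, 0.340 and 0.632 over 16262 genes, so a fit with the number as a block was run as well. That pairing is read from the data and stated nowhere, and HFD replicate 1 correlated more with icosapent ethyl replicate 2 (0.598). The signalling genes downstream of the receptors are not reported here.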

Additional observations from a re-analysis of the deposited data

Results flagged for a closer look

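Of the 126 groups of 4 values (42 genes in 3 groups), 7 held a mouse far from the other 3 by Dixon's criterion, which chance meets in about 1 in 20 groups. Dhx58 was low in LFD replicate 2 (72.3 CPM, others 85.8 to 87.7) and high in HFD replicate 4 (105.2, others 81.3 to 83.5). LFD replicate 2 was also high for Irf1 (39.2, others 25.7 to 28.0) and Rtp4 (21.8, others 19.4 to 19.6), and LFD replicate 7 was low for Ifit1 (22.8, others 31.7 to 32.6). Rtp4 was low in HFD replicate 1 (12.2, others 18.2 to 19.3), and Zbp1, a sensor of Z-form nucleic acid, was low in icosapent ethyl replicate 2 (1.32, others 2.52 to 2.73).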

How the results depend on the processing

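In HFD versus LFD, the count of all genes past the threshold was 230, against 2049 with DESeq2, 84 with library totals, 556 with all 12 mice in 1 fit and 1396 at a threshold of 0.1, and it ran from 0 to 918 over the omissions of 1 mouse (918 with HFD replicate 1 left out, 78 with LFD replicate 2 left out and 0 for each of the other 6). The count of interferon genes was 1, against 7, 0, 2 and 5 under these settings in turn, and 0 or 1 without 1 mouse. The median log2 fold change of these genes was -0.23 with library totals, a scaling that moved the median of all genes to -0.11. The log2 fold change of Oas1a ran from -0.23 to 0.092 without 1 mouse, and was positive without HFD replicate 1. In icosapent ethyl versus HFD the only count that moved was that of all genes by DESeq2, 6 against 0. The fit with a replicate block also called 0 genes and changed no call. In icosapent ethyl versus LFD, DESeq2 called 477 genes and 3 interferon genes, the fit of 12 mice 2 genes, and the omissions of 1 mouse 0 to 1 (1 without icosapent ethyl replicate 2). There Ddx58 ran from -0.0079 (without icosapent ethyl replicate 1) to 0.16 and Ifi27 from -0.018 (without icosapent ethyl replicate 4) to 0.24. The cause of these differences was not tested. The other 107 counts and medians under the alternatives stayed within 1.5 times the count, or within 0.088 (1 SD between mice) of the median. Depth left Mx1, at 0 to 18 counts per mouse, untested in icosapent ethyl versus HFD and the 11 interferon ligands untested throughout.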
